A study of Mus musculus with 8 samples.

Results

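DNA replication and S phase genes encode the proteins that copy the genome once per cell cycle. The set described here has 43 members, chosen by name for their role, and every one had at least 1 probe among the 22911 genes that could be named on the array. Their 61 probes were found through the RefSeq accession in the array's own probe annotation. All 43 were among the 16013 genes tested, and each was well above background in all 8 wild-type and all 8 mutant channels, so that no member was lost to the filter on dim probes. The members cover 8 steps, from origin licensing to the supply of nucleotides, and their values are given in that order.

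Whole kidneys were taken from mouse embryos at embryonic day 14.5. The 4 wild-type RNAs were labelled as such with no further genotype. The 4 mutant RNAs came from kidneys with a conditional knockout of Mdm4, an inhibitor of p53, driven by a Hoxb7Cre transgene. Hoxb7Cre acts in the ureteric epithelium, the branching tube that becomes the collecting system, while a whole kidney also holds nephron progenitors, nephrons, stroma, vessels and blood cells. Each wild-type RNA was hybridised with 1 mutant RNA on 2-colour Agilent arrays, and the same pair was repeated with the Cy3 and Cy5 dyes exchanged, which gave 8 arrays and n = 4 pairs. The number of embryos behind each RNA is not in the labels, nor is whether the wild types carried the transgene or the unrecombined alleles. The p-values therefore cover only how much these 4 pairs vary, which can include technical variation, with variances partly shared across genes as stated below.

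Values are log2 ratios (mutant over wild type) unless another scale is named, and 0 is no difference. Errors are standard errors (SE) from limma, which tested the 4 pair values against 0. Limma draws the variance of each gene towards that of all genes tested. An SE, interval or p-value thus does not rest on the 4 values of a gene alone, whereas an SD does. Between 60.7% and 70.2% of spots other than controls stood well above background, depending on the channel, 0 were saturated, and the number of arrays limits the precision. The brightest of 4 Mdm4 probes gave -0.034, -0.060, -0.28 and -0.35 in pairs 1 to 4 (mean -0.18 ± 0.075, limma adjusted p = 0.471). Its mean was -0.00062 where Cy5 labelled the mutant RNA and -0.36 where Cy3 did. Where this probe lies with respect to the deleted exons is not known here, so it does not check the labels. Y-linked transcripts, which mark the sex of the embryos, were higher in the mutant RNA in pairs 1, 2 and 4 and in the wild-type RNA in pair 3. They were well above background in all 8 mutant channels but in only 2 or 3 of the 8 wild-type channels, so their ratios have no exact size. The log2 of their summed intensities was 8.7, 8.4, 11.5 and 8.7 in wild types 1 to 4. In mutants 1 to 4 it was 11.7, 9.9, 9.7 and 11.8. The part of sex in the results below was not tested. Of the defining markers of the tissue, Six2 and Cited1 of nephron progenitors, Ret and Wnt11 of ureteric tips and Foxd1 of stroma were well above background in all channels.

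In background, a cell prepares replication by loading a ring of MCM proteins onto DNA at origins marked by the origin recognition complex, with CDC6 and CDT1 as loaders. At the start of S phase CDC45 and the GINS complex join the ring to form the active helicase, after which DNA polymerase alpha with its primase starts each strand and polymerases delta and epsilon extend it on the sliding clamp PCNA. Many of these genes are transcribed in a burst at the entry into S phase by E2F factors, while p21, the product of the p53 target Cdkn1a, can repress them through the retinoblastoma family and the DREAM complex. In the embryonic kidney, ureteric tips, nephron progenitors and stroma all divide.

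E2F factors bind a short DNA word, which was looked for in the promoters. Promoter sequences from RefSeq (build GRCm38.p6) were at hand for 35 of the 43 members, as 40 promoters, and the 250 bases before the start were searched on both strands. An E2F word was defined as TTTCCCGC, TTTCGCGC, TTTGCCGC or TTTGGCGC. It was found in 8 of the 40 member promoters (20.0%), against 1.86% of all 32851 promoters and 2.89% of the 15994 promoters of tested genes, which had nearly the same median GC content (58.0% and 58.8%). The following stretches are shown because they carry such a word in a licensing, helicase or clamp loader gene whose values are described below, with the word, or a pair of overlapping words, in capitals, and no other RefSeq gene overlaps them.
Cdc6, chr11:98907983-98908050, plus strand: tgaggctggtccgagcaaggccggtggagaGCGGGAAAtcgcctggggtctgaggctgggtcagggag
Orc1, chr4:108579397-108579453, plus strand: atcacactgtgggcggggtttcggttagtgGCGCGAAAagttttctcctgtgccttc
Mcm5, chr8:75109326-75109393, plus strand: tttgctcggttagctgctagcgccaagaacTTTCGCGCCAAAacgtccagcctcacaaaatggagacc
Mcm6, chr1:128359774-128359841, minus strand: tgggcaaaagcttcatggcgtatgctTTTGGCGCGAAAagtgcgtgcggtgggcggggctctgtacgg
Gins3, chr8:95633488-95633555, plus strand: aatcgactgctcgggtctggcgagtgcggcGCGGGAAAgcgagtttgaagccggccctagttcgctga
Rfc3, chr5:151651209-151651248, minus strand: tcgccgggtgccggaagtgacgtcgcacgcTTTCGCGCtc

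In Mcm5 a pair of words on opposite strands share 4 bases, and they begin at positions -153 and -149 from the start. Mcm6 has the same arrangement at -110 and -106, and a further word at -47. The word lies at -138 in Cdc6, at -27 in Orc1, at -41 in Gins3 and at -10 in Rfc3. Mcm7 and Pola1 were the other members with one. The CCAAT box, searched as CCAAT, stood in 24 of 40 member promoters (60.0%) against 33.8% of all promoters and 34.7% of those of tested genes. The CHR element, searched as TTTGAA or TTCGAA, stood in 7 (17.5%) against 17.1% of all promoters and 12.6% of those of tested genes. These are matches of letters only, and no match says only that these letters are not in this window.

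The 8 members with an E2F word had a median of -0.029, and the 27 without one had -0.043. Single members ran from -0.13 to 0.092 with a word and from -0.15 to 0.14 without, and the difference was not tested.

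The first comparison asks whether transcripts of the replication machinery differ in the whole organ once the ureteric epithelium lacks Mdm4. No replication gene passed the test against the spread between pairs. The lowest mean of any member was -0.15 for Mcm10, which is 0.902 times the wild-type level, and the highest was 0.14 for Slbp. The p53 target Cdkn1a, for comparison, stood at 0.95 ± 0.14 in the same pairs. Limma called 0 of 43 members at an adjusted p of 0.05, as it called 0 of 16013 genes (0%), and the members' adjusted p ran from 0.483 to 0.992. At an unadjusted p under 0.05 there were 0 members in either direction, against 3.6% of all genes lower and 7.01% higher. The same was found in the fit of all 8 arrays with the pair as a replicate block, in which limma called 0 members but 39 genes.

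The intervals say how large a difference in whole-kidney RNA the spread between these pairs, as limma estimates it, could have hidden after loess. They do not include the shift with median centring that is given below. The ureteric epithelium, where Hoxb7Cre acts, was not measured by itself. The 95% interval from limma, not adjusted for the number of genes, lay within a 1.2-fold change in either direction for 30 of the 43 members (69.8%), against 53.7% of all genes. It lay within 1.5-fold for all 43 (against 94.2%). The lowest bound was -0.33, for Cdc45, and the highest was 0.36, for Prim2. In bulk kidney RNA fewer cells in S phase and less transcript per cell cannot be told apart.

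**Figure D1:**
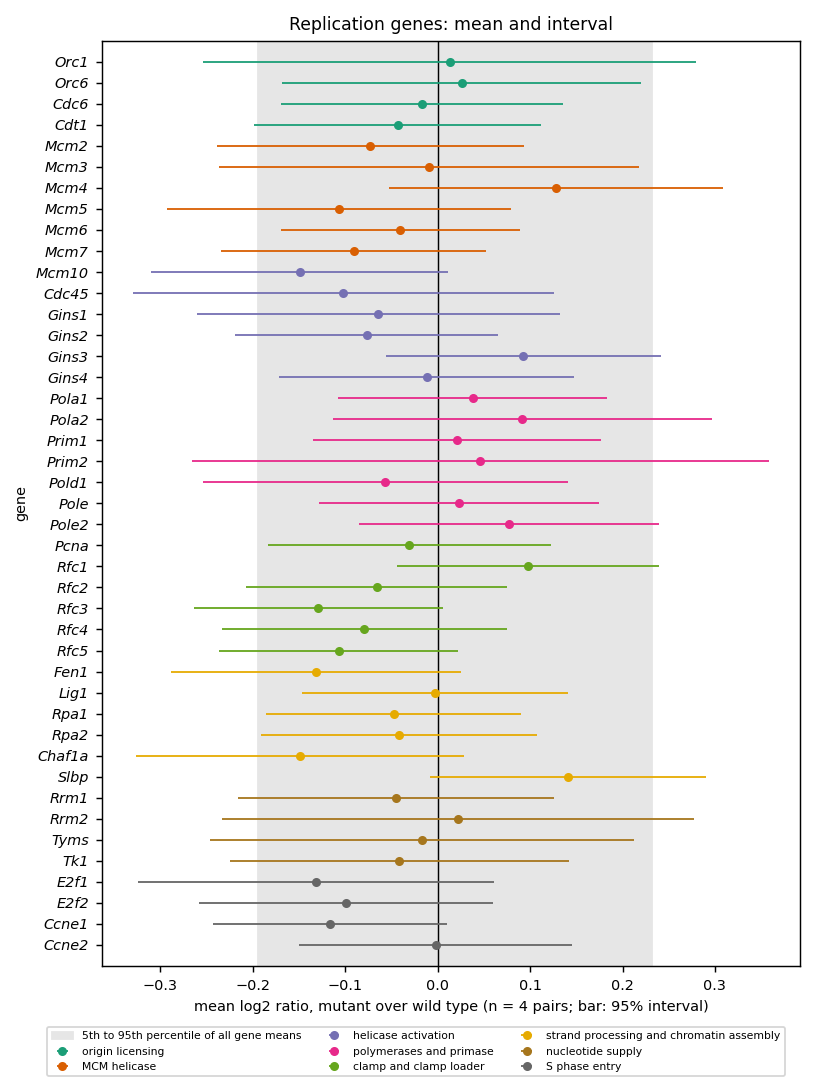
Mean log2 ratio of mutant over wild type (horizontal axis) for the 43 replication genes (vertical axis), coloured by role; points are means of 4 pairs, bars the 95% interval from limma, and the grey band the 5th to 95th percentile of the means of all 16013 genes. Every mean lies inside the band, and every bar crosses 0.

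As a set the members lay slightly below all genes. The mean was below 0 for 30 of 43 (69.8%), against 46.1% of all genes, and the median was -0.042, against 0.010. With median centring in place of loess the median turned to 0.13, where that of all genes was 0.14, 29 members changed sign and 1, Ccne2, was left below 0. On the Cy3-mutant arrays alone, those whose mutant RNA carried Cy3, it was 0.011. The direction of single members given below is that after loess, and every mean below 0 except that of Ccne2 lay above it with median centring. As the median of all genes stood at 0.14 with median centring, values given below for that setting are read against 0.14, not 0.

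The median differed from pair to pair. The members' median was -0.092, -0.0084, 0.023 and -0.050 in pairs 1 to 4, with 34, 22, 15 and 28 of 43 members below 0. Of all genes 53.5%, 50.8%, 39.3% and 45.5% were below 0 in these pairs. Over all genes the medians were -0.013, -0.0026, 0.040 and 0.027. Pair 1 lay lowest and pair 3 highest for both, and without pair 1 the members' median was -0.0019 with 23 of 43 below 0. The members below 0 in all 4 pairs were 7 of 43 (16.3%, against 7.84% of all genes), and those above 0 in all 4 were 2 (4.65%, against 12.1%). The former were Mcm7, Mcm10, Rfc3, Rfc5, Fen1, Chaf1a and Ccne1, and the latter were Gins3 and Slbp. With median centring 0 members were below 0 in all 4 pairs and 5 above. The members below 0 on all 8 arrays were 3 of 43 (6.98%, against 1.31%), namely Rfc3, Chaf1a and Ccne1, and 0 were above 0 on all 8 (against 3.35%).

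**Figure D2:**
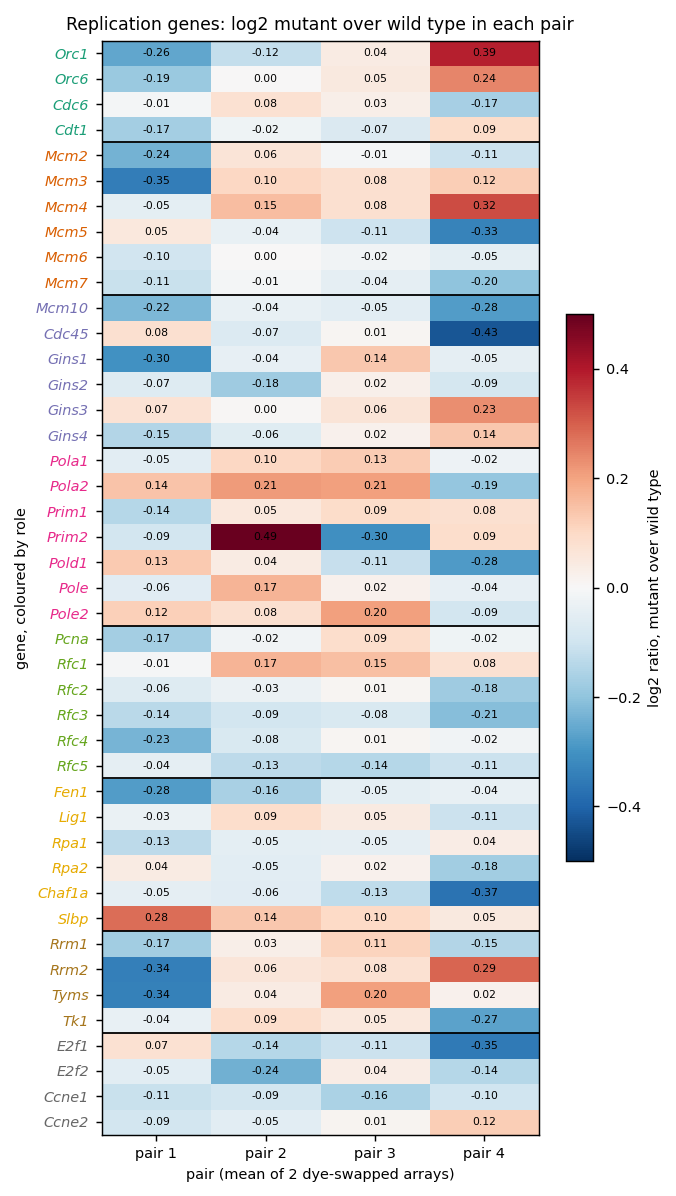
Log2 ratio of mutant over wild type (colour and printed value) of the 43 replication genes (rows, grouped and coloured by role) in each of the 4 pairs (columns), each the mean of 2 dye-swapped arrays. Pair 1 is blue in 34 of 43 rows and pair 3 in 15 (53.5% and 39.3% of all genes were below 0 there), and few rows keep 1 colour throughout.

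Origin licensing is the first step, and its 4 genes were centred near 0 (median -0.0020). Cdt1, which brings the MCM ring to the origin and is destroyed once replication begins, was at -0.17, -0.023, -0.071 and 0.093 in pairs 1 to 4. The groups overlapped, and its mean was -0.043 ± 0.064 (limma adjusted p = 0.816). Orc6, the smallest subunit of the origin recognition complex, was at -0.19, 0.00069, 0.047 and 0.24, with a mean of 0.026 ± 0.080 (limma adjusted p = 0.920). Orc1, its largest subunit, which comes and goes with the cell cycle, had a mean of 0.013 ± 0.11, with pair 1 at -0.26 and pair 4 at 0.39. Its second probe gave -0.080, and -0.20 in pair 4, so the probes of Orc1 did not share a sign. The loader gene Cdc6 was at -0.017 ± 0.063, and its second probe at -0.0018. With median centring Cdt1 and Cdc6 lay above 0.

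The MCM helicase is a ring of 6 different subunits, which are made together and work in equal numbers. Of its genes 5 had means below 0 and 1 above, over a range from -0.11 to 0.13. Mcm7 was at -0.11, -0.0084, -0.044 and -0.20 in pairs 1 to 4, below 0 in each (mean -0.091 ± 0.059). Its dimmer probe gave a mean of -0.40, the largest gap between probe means of 1 member, and with median centring the brighter probe lay above 0. Mcm4 was the subunit above 0, at -0.048, 0.15, 0.082 and 0.32 (mean 0.13 ± 0.074, limma adjusted p = 0.568). It was above 0 in 3 pairs and highest in pair 4. Its mean was 0.29 with median centring (all genes 0.14) and 0.017 on the Cy3-mutant arrays.

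The subunits lay furthest apart in pair 4, with Mcm4 at 0.32 and Mcm5 at -0.33. Mcm5 was at 0.051, -0.039, -0.11 and -0.33 in pairs 1 to 4, on 1 probe, with a mean of -0.11 ± 0.077. Mcm3 was at -0.35, 0.10, 0.081 and 0.12, where pair 1 stood alone, and its other 2 probes were at -0.054 and -0.0044 in that pair. Its mean was -0.0093 ± 0.094. Mcm2, the subunit that also carries histones at the fork, was at -0.073 ± 0.068. Mcm6 was at -0.040 ± 0.053, with a strong dependence on the dye that is given below. Except for Mcm4, these means turned above 0 with median centring.

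Activation of the loaded ring needs MCM10, CDC45 and the 4 GINS subunits, and 5 of these 6 genes had means below 0 after loess. Mcm10, which is needed for the helicase to start unwinding, was at -0.22, -0.039, -0.055 and -0.28 in pairs 1 to 4, below 0 in each, with the mean furthest from 0 of any member (-0.15 ± 0.066, 95% interval -0.31 to 0.011, limma adjusted p = 0.493). Its mean lay at -0.36 on the Cy5-mutant arrays, at 0.059 on the Cy3-mutant arrays and at 0.023 with median centring (all genes 0.14). Gins3 was the member of the group above 0, at 0.071, 0.0050, 0.063 and 0.23 (mean 0.092 ± 0.061, limma adjusted p = 0.606). It lay above 0 in all pairs, though barely in pair 2. Its mean was 0.26 with median centring (all genes 0.14) and 0.046 without pair 4. The other GINS genes were at -0.064 ± 0.081 (Gins1), -0.077 ± 0.059 (Gins2) and -0.012 ± 0.066 (Gins4). Cdc45, the partner of MCM and GINS in the moving helicase, was at -0.10 ± 0.094, and in pair 4 it was at -0.43 on one probe and -0.74 on the other. Without pair 4 the mean of Cdc45 was 0.0070.

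Of the 7 polymerase and primase genes 6 had means above 0 after loess, as had 8629 of the 16013 genes tested. Their median was 0.038, against 0.010 for all genes. In pairs 1 to 4 it was -0.053, 0.10, 0.094 and -0.043, so it did not keep 1 sign. Pole2, the second subunit of the leading-strand polymerase epsilon, was at 0.12, 0.081, 0.20 and -0.093 in pairs 1 to 4 (mean 0.077 ± 0.067, limma adjusted p = 0.683). Pola2, the regulatory subunit of polymerase alpha, was at 0.14, 0.21, 0.21 and -0.19 (mean 0.092 ± 0.085, limma adjusted p = 0.699). Both lay above 0 in pairs 1, 2 and 3 and below it in pair 4. Prim2, the large primase subunit, varied most of all members, at -0.092, 0.49, -0.30 and 0.087 (SD 0.34). Its level in the wild-type RNA of pair 2 was 11.4 on the log2 intensity scale, against 12.2 to 12.3 in the other wild types. Its mean was 0.046 ± 0.13. The catalytic primase gene Prim1 was at 0.021 ± 0.064, and the catalytic polymerase genes were at 0.038 ± 0.060 (Pola1, on the X chromosome), -0.057 ± 0.081 (Pold1) and 0.023 ± 0.062 (Pole). The mean of Pola2 was 0.0038 and that of Pole2 -0.032 on the Cy3-mutant arrays.

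The sliding clamp holds the polymerases on DNA, and a loader of 5 RFC subunits opens it. Pcna, the clamp gene, which is also a p53 target, was at -0.031 ± 0.063 with -0.17 in pair 1 and 0.088 in pair 3. Of the small loader subunits, Rfc3 was at -0.14, -0.091, -0.077 and -0.21 in pairs 1 to 4 and had the smallest unadjusted p of any member (0.0573; mean -0.13 ± 0.055, limma adjusted p = 0.483). Its other probe was at -0.082, with 0.22 in pair 1 and -0.35 in pair 4. Rfc5 was at -0.045, -0.13, -0.14 and -0.11, a narrow spread (mean -0.11 ± 0.053, SD 0.044, limma adjusted p = 0.528). Rfc2 and Rfc4 were at -0.066 ± 0.058 and -0.079 ± 0.063. The large subunit gene Rfc1 lay above 0, at 0.098 ± 0.058. With median centring Rfc2, Rfc3, Rfc4 and Rfc5 were at 0.11, 0.047, 0.098 and 0.060, each lower than the 0.14 of all genes.

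Behind the fork, flaps are cut, nicks are sealed and nucleosomes are rebuilt. Chaf1a, the large subunit of the histone chaperone CAF-1, was at -0.046, -0.055, -0.13 and -0.37 in pairs 1 to 4 (mean -0.15 ± 0.073, limma adjusted p = 0.524). On the log2 intensity scale its level was 13.38, 13.40, 13.42 and 13.51 in wild types 1 to 4 and 13.33, 13.34, 13.29 and 13.14 in mutants 1 to 4. The groups did not overlap, which held for 2 of 43 members with the wild types above (4.65%, against 1.52% of all genes) and for 0 with the mutants above (against 3.3%). Chaf1a and Ccne1 were the 2. Without pair 4 the mean of Chaf1a was -0.076, and with median centring it was 0.020, where all genes had 0.14.

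Slbp, whose product binds the stem-loop of histone mRNAs and allows their translation in S phase, had the highest mean of all members. It was at 0.28, 0.14, 0.099 and 0.050 in pairs 1 to 4, above 0 in each (mean 0.14 ± 0.062, 95% interval -0.0086 to 0.29, limma adjusted p = 0.488). Its other probe was at 0.081, but at 0.26, 0.12, -0.012 and -0.037 in pairs 1 to 4, so not above 0 in each. The sign of the Slbp mean was kept in all 15 other ways of processing. That mean was 0.30 with median centring (all genes 0.14) and 0.070 on the Cy3-mutant arrays. Fen1, the flap endonuclease gene, was at -0.28, -0.16, -0.049 and -0.036 (mean -0.13 ± 0.065, limma adjusted p = 0.524). Its pair values were all below 0, but the Cy5-mutant arrays lay at -0.40 and the Cy3-mutant arrays at 0.14. Lig1, the ligase gene, was at -0.0027 ± 0.059, and the genes of the single-strand binding protein RPA were at -0.048 ± 0.057 (Rpa1) and -0.042 ± 0.061 (Rpa2).

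The 4 genes of nucleotide supply were close to 0, with means from -0.045 to 0.022. Rrm1, the large subunit of ribonucleotide reductase, was at -0.17, 0.029, 0.11 and -0.15 in pairs 1 to 4 (mean -0.045 ± 0.070). Tk1, the S phase thymidine kinase gene, was at -0.038, 0.089, 0.051 and -0.27 (mean -0.042 ± 0.076, limma adjusted p = 0.855). Rrm2, the small subunit that is made in S phase, had a mean of 0.022 ± 0.11 with pair 1 at -0.34 and pair 4 at 0.29. Tyms, which makes thymidylate, had -0.017 ± 0.094 with pair 1 at -0.34 and pair 3 at 0.20. Neither Rrm2 nor Tyms kept 1 sign across pairs.

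The 4 genes that trigger entry into S phase had means below 0 after loess (median -0.11). Ccne1, which encodes cyclin E1, the partner of CDK2, was at -0.11, -0.093, -0.16 and -0.10 in pairs 1 to 4, the narrowest spread of any member (SD 0.030; mean -0.12 ± 0.052, limma adjusted p = 0.498). Its level was 14.06, 14.09, 14.05 and 14.09 in wild types 1 to 4 and 13.95, 13.99, 13.89 and 13.99 in mutants 1 to 4, on the log2 intensity scale. Every wild-type level thus exceeded every mutant level, and Ccne1 lay below 0 on all 8 arrays. With median centring its mean was 0.052, where all genes had 0.14.

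E2f1, the activating E2F factor, was at 0.075, -0.14, -0.11 and -0.35 in pairs 1 to 4 (mean -0.13 ± 0.079, limma adjusted p = 0.577), lowest in pair 4. E2f2, another activator, had a mean of -0.099 ± 0.066 and a second probe at -0.024. Ccne2, for cyclin E2, was at -0.0021 ± 0.061, well within its error of 0. At a mean level of 7.2 in both groups on the log2 intensity scale it was the dimmest member. A ratio near 0 is therefore weaker evidence of no difference for it than for brighter members. The groups of E2f1, E2f2 and Ccne2 overlapped. With median centring E2f1 and E2f2 were at 0.036 and 0.069, where all genes had 0.14.

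Repeat probes gave a measure of error within a gene. Of the 17 members with more than 1 kept probe, 2 (Lig1 and Orc1) had probes with means of opposite sign. The median gap between the highest and lowest probe mean of a gene was 0.060, and the largest was 0.30, for Mcm7. The median SE of the members, 0.065, is another measure, of the spread between pairs as limma estimates it. In single pairs probes of a gene could lie further apart than their means. In pair 4 the probes of Pola1 were at -0.024 and -0.57, and in pair 1 those of Rfc3 were at -0.14 and 0.22.

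Several members differed between the dye orientations. Limma found a difference between the dye orientations, tested within pairs, for 13 of 43 members (30.2%), a share near the 31.5% of all genes. For 4 members the orientations had opposite signs in all 4 pairs, and the share of all genes with such signs is not given here. Mcm6 was at -0.34, -0.25, -0.30 and -0.29 on the Cy5-mutant arrays of pairs 1 to 4. On the Cy3-mutant arrays it was at 0.14, 0.26, 0.27 and 0.19, so that every array followed its dye. The averaged pair values of Mcm6 were -0.096, 0.0038, -0.019 and -0.050.

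Rrm1 went the same way, at -0.43, -0.20, -0.095 and -0.49 on the Cy5-mutant arrays and at 0.080, 0.26, 0.32 and 0.20 on the Cy3-mutant arrays. Lig1 was at -0.097, -0.024, -0.078 and -0.24 on the Cy5-mutant arrays and at 0.028, 0.20, 0.17 and 0.022 on the Cy3-mutant arrays, with pair values of -0.034, 0.087, 0.045 and -0.11. Its gap was the smallest of the 4. Ccne2 had the reverse order, at 0.034, 0.11, 0.072 and 0.33 on the Cy5-mutant arrays and at -0.22, -0.22, -0.045 and -0.085 on the Cy3-mutant arrays, with pair values of -0.094, -0.053, 0.013 and 0.12. In these 4 members the sign of a single array thus gave the dye and not the genotype.

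**Figure D3:**
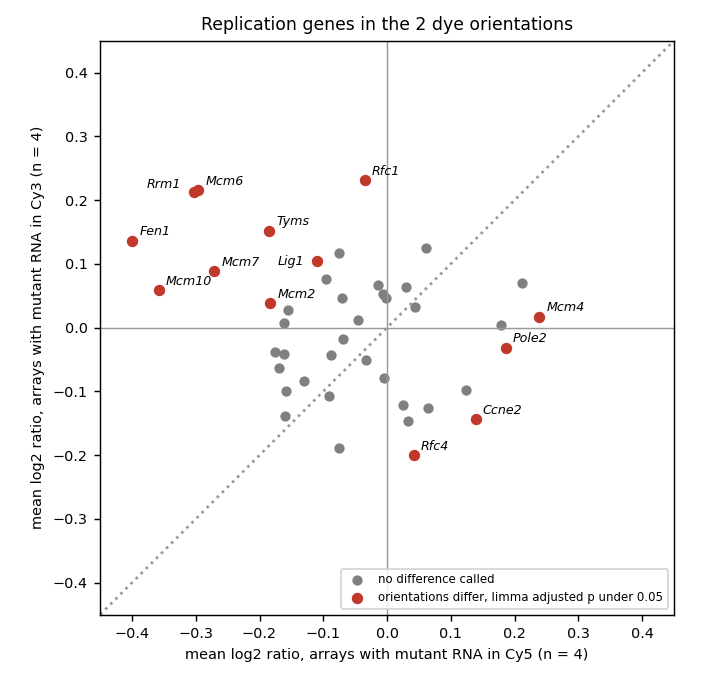
Mean log2 ratio (mutant over wild type) of the 43 replication genes on the 4 Cy5-mutant arrays (horizontal axis) and the 4 Cy3-mutant arrays (vertical axis); red points are the 13 genes whose orientations differed by limma at an adjusted p under 0.05, and the dotted line marks equal values. Of the red points, Fen1, Mcm6, Rrm1, Mcm10, Mcm7, Tyms, Lig1, Mcm2 and Rfc1 lie in the upper left. Ccne2, Rfc4 and Pole2 lie in the lower right, and in both parts the sign of the mean follows the dye.

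Other genes of the pathway, from lists written for this comparison, were described in the same way. Of 42 further replication genes, limma called 0 in either direction (3 lower and 0 higher at an unadjusted p under 0.05), 23 had means below 0 and 19 above, and the median was -0.0030, against 0.010 for all genes. Below 0 in all 4 pairs were 5, and above 0 in all were 2. The list's median was 0.16 with median centring (all genes 0.14), 0.027 without pair 1 and 0.028 on the Cy5-mutant arrays. For these and the following lists, the shares of all genes were 3.6% lower and 7.01% higher at an unadjusted p under 0.05, and 7.84% below and 12.1% above 0 in all 4 pairs. The 4 with the smallest p were Uhrf1, which brings the maintenance DNA methyltransferase to new DNA, Clspn, a checkpoint adaptor at the fork, Chtf18, of an alternative clamp loader, and Pole3, a histone-fold subunit of polymerase epsilon. Uhrf1 was at -0.25, -0.20, -0.33 and -0.072 (mean -0.21 ± 0.063) and Chtf18 at -0.18, -0.063, -0.14 and -0.18 (mean -0.14 ± 0.055). Clspn was at -0.27, -0.22, -0.066 and -0.86 (mean -0.35 ± 0.13) and Pole3 at -0.14, -0.11, -0.058 and -0.26 (mean -0.14 ± 0.059). Their limma adjusted p ran from 0.417 to 0.472. Clspn was lowest in pair 4 and stood at -0.64 on the Cy5-mutant and -0.065 on the Cy3-mutant arrays. Its mean was -0.19 without pair 4 and -0.21 as the mean of its probes. With median centring Uhrf1, Clspn, Chtf18 and Pole3 were at -0.043, -0.24, 0.030 and 0.024, where all genes had 0.14.

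Among 19 genes of the control from G1 to S, limma called 0 (1 lower and 4 higher at an unadjusted p under 0.05), with 9 means below 0 and 10 above. The list's median was 0.017, but -0.011 without pair 4, -0.059 on the Cy5-mutant arrays and 0.18 with median centring. Cdkn1a, the p53 target that inhibits cyclin-dependent kinases, was at 1.33, 0.44, 0.92 and 1.11 in pairs 1 to 4 and above 0 on all 8 arrays (mean 0.95 ± 0.14, limma adjusted p = 0.232). It passed the threshold with median centring (mean 1.09, limma adjusted p = 0.0176) and in the fit of all 8 arrays with the pair as a replicate block (limma adjusted p = 0.0264). The kinase inhibitor genes Cdkn1c and Cdkn2c were at 0.17 ± 0.059 and 0.19 ± 0.067, and the growth regulator Myc at 0.18 ± 0.060, each above 0 in all 4 pairs (limma adjusted p from 0.430 to 0.441). With median centring Cdkn1c, Cdkn2c and Myc were at 0.33, 0.29 and 0.34, and Myc was at 0.11 as the mean of its probes.

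Of 17 genes of the E2F, retinoblastoma and DREAM proteins limma called 0 (1 lower and 1 higher at an unadjusted p under 0.05), with 6 means below 0 and 11 above (median 0.030). The median was -0.015 without pair 4, with 10 of 17 below 0, 0.11 without pair 1 and 0.18 with median centring. Rbl2, which encodes the DREAM subunit p130, was at 0.18, 0.18, 0.23 and 0.21 in pairs 1 to 4, a narrow range above 0 (mean 0.20 ± 0.052, limma adjusted p = 0.397), and above 0 on all 8 arrays. E2f4, the repressive E2F of that complex, was at -0.11, -0.28, -0.093 and -0.27 (mean -0.19 ± 0.062), but at -0.49 on the Cy5-mutant and 0.11 on the Cy3-mutant arrays. Mybl2 and E2f3, which act in activation, were at -0.19 ± 0.089 and -0.11 ± 0.057. With median centring E2f4, Mybl2 and E2f3 were at -0.13, -0.017 and -0.010. Of 20 mitosis genes limma called 0 (2 lower and 0 higher at an unadjusted p under 0.05), and 16 had means below 0 (median -0.060), with Ccnb1, for cyclin B1, at -0.18 ± 0.057, Prc1 at -0.15 ± 0.059, Aurka at -0.12 ± 0.055 and Cdc20 at -0.11 ± 0.056. Below 0 in all 4 pairs were 7 of the 20 (against 7.84% of all genes), and above 0 in all were 0 (against 12.1%). Their summed log2 level ran from 18.27 to 18.31 in the wild types and from 18.18 to 18.25 in the mutants. The groups did not overlap, but the gap was narrow, with the lowest wild type at 18.2658 and the highest mutant at 18.2545. With median centring the mitosis median was 0.10, against 0.14 for all genes, and 1 of the 20 was below 0.

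After loess, among the gene lists of the cell cycle, the median furthest from 0 was that of the replication-dependent histones, which package new DNA and whose mRNAs end in a stem-loop without a poly(A) tail. The list held 17 histone genes and Npat, which encodes the factor that activates histone transcription at S phase entry. Of these 18, 14 were among the genes tested, and limma called 0. All 13 histone genes measured had means below 0 and Npat was above. The median was -0.28, 8 of 14 were lower at an unadjusted p under 0.05 (against 3.6% of all genes), and 7 were below 0 in all 4 pairs (against 7.84%).

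H4c3 (Hist1h4c) was at -0.28, -0.57, -0.25 and -0.96 in pairs 1 to 4 (mean -0.52 ± 0.12, limma adjusted p = 0.397). H3c3 (Hist1h3c) was at -0.27, -0.40, -0.42 and -1.12 (mean -0.56 ± 0.14) and H3c13 (Hist2h3b) at -0.19, -0.53, -0.39 and -1.19 (mean -0.57 ± 0.16), with limma adjusted p of 0.397 and 0.398. H2bc3 (Hist1h2bb) was at -0.14, -0.35, -0.19 and -0.72 (mean -0.35 ± 0.10, limma adjusted p = 0.415). All of these were lowest in pair 4, and Npat, named after its value was seen, was at -0.050, 0.22, 0.29 and 0.40 (mean 0.21 ± 0.084, limma adjusted p = 0.459). Each H3 and H4 protein is encoded by several near-identical genes, so that a probe may bind the mRNA of more than 1 copy. The names of single copies are therefore uncertain, and the counts of histone genes may hold 1 signal more than once.

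The log2 of the intensities summed over the list ran from 19.52 to 19.80 in the wild types and from 19.17 to 19.47 in the mutants, without overlap. For the 43 members the sums ran from 19.43 to 19.47 and from 19.31 to 19.47, with overlap. The histone median was -0.13, -0.25, -0.22 and -0.65 in pairs 1 to 4. It was -0.19 without pair 4, -0.11 with median centring, where all genes had 0.14 and the other lists of the cell cycle 0.10 to 0.18, and -0.18 on the Cy3-mutant arrays, with 11 of 14 below 0 in both of the latter. The orientations differed by limma for 7 of the 14. In all 4 histones named, the Cy5-mutant arrays gave the lower values, as in H3c3 with -0.95 against -0.16. The order was reversed in H4c14, at 0.011 against -0.59, and in H4c4, at 0.0094 against -0.55, both named after their values were seen.

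Markers of the cell types of the kidney differed between pairs as well. All 13 markers of the ureteric epithelium had means below 0, with medians of -0.68, -0.36, -0.028 and -0.74 in pairs 1 to 4, where the 43 members were at -0.092, -0.0084, 0.023 and -0.050. For both, pairs 1 and 4 were the low pairs and pair 3 the highest. The medians over all genes were -0.013, -0.0026, 0.040 and 0.027, so pair 3 was the highest there too, and pair 1 the lowest. The summed log2 level of the ureteric markers ran from 17.4 to 17.9 in wild types and from 17.2 to 17.5 in mutants, with overlap. All 8 stroma markers had means above 0, with medians of 0.42, 0.32, 0.14 and 0.51. Their sums ran from 16.7 to 17.1 and from 16.9 to 17.6.

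The 5 macrophage markers were all above 0 (median 0.34), with summed levels from 12.5 to 12.9 in wild types and 12.8 to 13.4 in mutants. Of 7 nephron progenitor markers 5 were below 0 (median -0.11, summed level 16.91 to 17.23 in wild types and 16.97 to 17.04 in mutants). Of 5 early nephron markers 4 were below 0 (median -0.045). Their summed level was 15.09 to 15.33 in wild types and 14.86 to 15.03 in mutants, without overlap but with a narrow gap. Of 5 endothelial markers 2 were below 0 (median 0.034, summed level 14.2 to 14.4 in wild types and 14.2 to 14.5 in mutants). Of the 5 measured markers of red cell precursors, which divide too, 3 were below 0 (median -0.035, summed level 12.7 to 12.9 in wild types and 12.6 to 13.1 in mutants). Limma called 0 markers of these types, though 9 ureteric, 2 early nephron and 1 nephron progenitor markers were lower, and 6 stroma and 4 macrophage markers higher, at an unadjusted p under 0.05 (all genes 3.6% lower and 7.01% higher). Of the 8 stroma markers limma called 3 with median centring (smallest adjusted p = 0.0292) and 1 with the pair as a replicate block (adjusted p = 0.0473). With median centring the medians were -0.24 (ureteric epithelium), 0.49 (stroma), 0.44 (macrophage), 0.068 (nephron progenitor), 0.12 (early nephron), 0.20 (endothelium) and 0.090 (red cell precursors), so that the sign of 3 of these turned. On the Cy5-mutant arrays the nephron progenitor median was 0.018 and the endothelial -0.039. Each marker tested stood above background by the scanner's test in 7 or 8 of the 8 channels of each genotype. Their part in the values of the replication genes and histones was not tested.

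**Figure D4:**
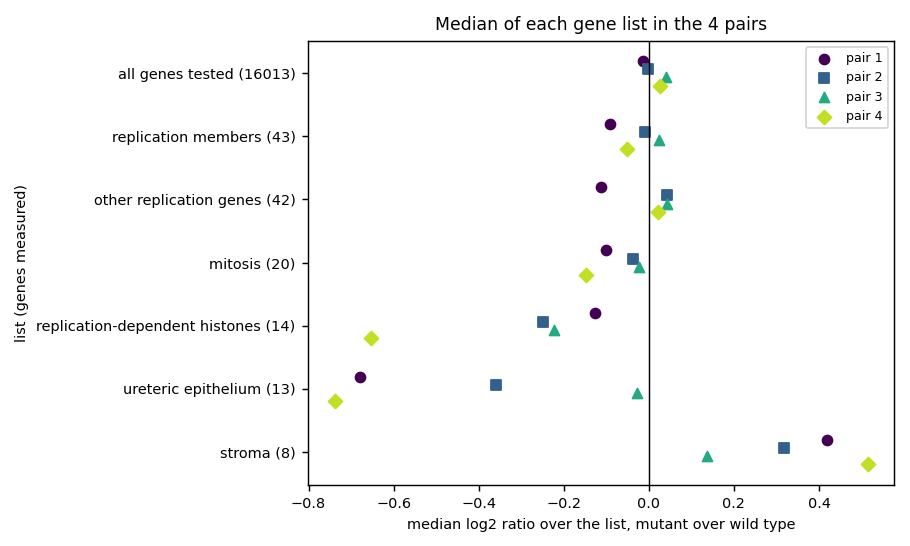
Median log2 ratio, mutant over wild type (horizontal axis), over each gene list (vertical axis, with the number of genes measured) in each of the 4 pairs (symbols). The replication genes lie between -0.092 and 0.023, the histone list lies below 0 in all 4 pairs, and the ureteric markers lie lowest in pairs 1 and 4.

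**Figure D5:**
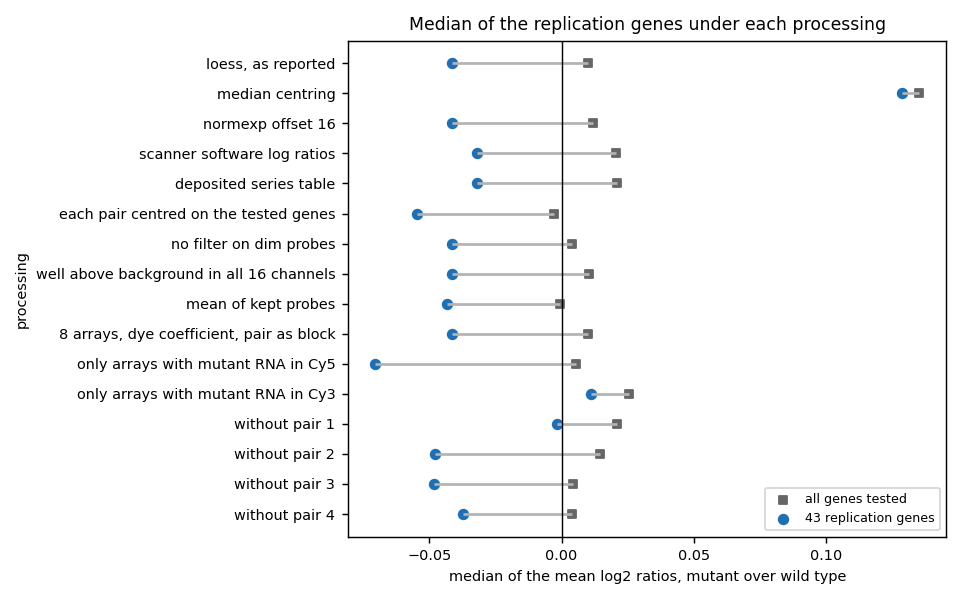
Median of the mean log2 ratios of the 43 replication genes (blue) and of all genes tested (grey) on the horizontal axis, for each way of processing the arrays (vertical axis). The blue point lies left of the grey one in every row and it moves to 0.13 with median centring, where the grey one is at 0.14.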

How the data were processed

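RNA (100 ng a sample) was compared on 8 2-colour arrays, 2 dye-swapped arrays for each of 4 pairs, per the labels, so the pairing comes from the design. The deposited scanner files give median spot and local background intensity, processed intensities and a log10 ratio of Cy5 over Cy3, from Agilent Feature Extraction 10.7.3.1 per the file headers (8.5.1.1 per the submitters' processing notes). The deposited series table repeats these log10 ratios to within 0.005.

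Median intensities were corrected by normexp (offset 50) and loess-normalised in limma 3.58.1 (R 4.3.3), leaving out control (3671 of 62976) and outlier spots (95 to 156 an array). Spots of a probe, then both arrays of a pair, were averaged as mutant over wild type. Probes well above background in at least 6 of 8 channels of a genotype were kept (34594 of 56605) and named by RefSeq accession (GRCm38.p6). Each gene was represented by its brightest kept probe. Limma tested pair means, and the difference of the orientations within pairs, against 0 (two-sided, Benjamini-Hochberg over 16013 genes). Levels are log2 intensities after loess and Aquantile, averaged over both dyes. The steps were tested on simulated data.

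The members and lists were chosen with earlier results of these data known. Pair values are given for members with 1 sign in all 4 pairs, the 2 smallest p of each role and signs opposed by dye, with a few others named after their values were seen. Of each other list the 4 smallest p are named. Of 18 histone list genes 4 and of 6 red cell markers 1 were not among the genes tested. Protein features were not analysed here.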

Additional observations from a re-analysis of the deposited data

Results flagged for a closer look

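In 2 of the 43 members 1 pair stood apart from the other 3 by more than Dixon's 95% critical value. Mcm3 was at -0.35 in pair 1 and Prim1 was at -0.14 in pair 1. Chance flags about 1 in 20 groups, and the same criterion met 6.31% of all genes.

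In 13 members the ratio differed between the dye orientations by limma's test within pairs, as it did in 31.5% of all genes. The ratio with mutant RNA in Cy5 minus that with it in Cy3 was below 0 in 9 of them, at -0.54 for Fen1, -0.52 for Rrm1, -0.51 for Mcm6, -0.42 for Mcm10, -0.36 for Mcm7, -0.34 for Tyms, -0.27 for Rfc1, -0.22 for Mcm2 and -0.21 for Lig1. It was above 0 in 4, at 0.28 for Ccne2, 0.24 for Rfc4, 0.22 for Mcm4 and 0.22 for Pole2.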

How the results depend on the processing

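Limma called 0 of 43 members in all 15 alternatives run. The count of all genes called was 0 in 13 of them, 42 with median centring and 39 when the 8 arrays were fitted singly with a term for dye and the pair as a replicate block (correlation -0.586 of the red over green ratios of a pair, in which swapped arrays run opposite ways). That paired fit left the members' median at -0.042. The median was 0.13 with median centring and 0.011 on Cy3-mutant arrays alone, and ran from -0.048 to -0.0019 with 1 pair left out. Members below 0 in all pairs were 7 as reported, 0 with median centring, 11 after centring every pair, 11 on Cy5-mutant arrays alone and 9 to 13 with 1 pair left out (13 without pair 3). Members above 0 in all pairs were 2 as reported, 5 with median centring, 6 on Cy3-mutant and 4 on Cy5-mutant arrays alone, and 2 to 9 with 1 pair left out (9 without pair 1). With a pair left out, 3 values rather than 4 must share a sign. The shares of all genes in these alternatives are not given, so the counts describe the members only. All members were well above background in every channel. The sign of the mean changed for 29 members with median centring, 15 on Cy3-mutant and 10 on Cy5-mutant arrays, 9 without pair 4, 7 without pair 1, 4 without pair 2 and 1 without pair 3. It changed for 3 with the scanner's or the deposited ratios, 2 with the mean of probes, and 0 with an offset of 16, other filters on dim probes or centred pairs. The alternatives for the other lists were added after seeing the data. The cause of these shifts was not tested.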
